A study of Mus musculus with 9 samples.

Results

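The genes described here were the known target genes of the transcription factor NRF2 and the glutathione transferases of mouse neck skin, measured after repeated painting with a contact allergen. They were chosen by name, without a threshold on their values but with earlier results of these data known. The rule took every gene whose symbol begins with Gsta, Gstk, Gstm, Gsto, Gstp, Gstt or Mgst. It also took 22 named genes of glutathione and thioredoxin metabolism, detoxification and NRF2 control. Of 30142 genes measured, 42 met this rule, of which 23 were cytosolic, mitochondrial or microsomal glutathione transferases and 19 were other genes. Gclm, Prdx1 and G6pdx were named in the rule and had no transcript cluster with a single symbol. Clusters that carry several symbols (Gclm with Gm6061, Prdx1 with Gm21399, Gsta1 with Gm3776, Gstp2 with Gstp-ps) were left out.

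Whole neck skin of male C57BL/6 mice aged 6 to 8 weeks was profiled on 9 Affymetrix arrays, 3 per group, labelled as biological replicates. In the oxazolone and urushiol groups, mice were sensitised on the shaved abdomen with the allergen at 2.0% and, 5 days later, challenged on the shaved nape with 40 µl of it at 0.5% in acetone. The challenge was given 5 times, on days 0, 2, 4, 6 and 8, and skin was taken 4 hours after the last. Urushiol is the mixture of alkyl catechols of poison ivy, oxazolone is a synthetic hapten, and both bind to proteins. The control group was labelled healthy skin, and the labels used here do not say whether it was shaved or painted with acetone.

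NRF2, encoded by Nfe2l2, is held in the cytoplasm and marked for destruction by its partner KEAP1. Electrophiles and oxidants modify cysteines of KEAP1, after which NRF2 accumulates, enters the nucleus and pairs with small MAF proteins on antioxidant response elements. Its targets supply cysteine and glutathione, reduce quinones and peroxides, and conjugate electrophiles to glutathione, and the skin meets such compounds from outside. Much of this control acts on the NRF2 protein, which arrays of RNA do not measure.

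Promoter sequence was available for 35 of the 42 genes, as RefSeq windows on GRCm38.p6 from 250 bases before to 50 after each start. There was no entry for Aldh3a1, Gclc, Gsr, Gsta4, Gstp-ps, Gstt2 and Hmox1. The core of the antioxidant response element, TGACNNNGC on either strand, was present in windows of 8 of the 35 genes (22.9%, exact 95% interval 10.4 to 40.1), against 3781 of 27025 genes with a window (14.0%). A longer form, with a further A after the core, was found in 2 of the 35 (5.7%, against 3.4% of all), and a looser form that contains every core match, TGANNNNGC, in 19 (54.3%, against 45.0%). The stretches below are examples from genes whose values are given array by array further down. Of these genes, Gstp1 and Txnrd1 did not pass the test against control skin for either allergen on the deposited scale with all 9 arrays. Each is 5′ to 3′ on the strand of its gene, with the matched letters in capitals, in the order of Srxn1 (chr2:152105459-152105507, plus strand), Gstp1 (chr19:4037958-4038006, minus strand), Slc7a11 (chr3:50443682-50443730, minus strand), Nfe2l2 (chr2:75704875-75704913, minus strand), Txnrd1 (chr10:82859094-82859142, plus strand) and Gsta3 (chr1:21240444-21240492, plus strand).
Srxn1: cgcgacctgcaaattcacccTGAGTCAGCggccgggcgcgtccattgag
Gstp1: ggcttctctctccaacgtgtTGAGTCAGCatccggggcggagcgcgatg
Slc7a11: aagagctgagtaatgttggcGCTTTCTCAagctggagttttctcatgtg
Nfe2l2: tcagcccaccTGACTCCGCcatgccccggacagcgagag
Txnrd1: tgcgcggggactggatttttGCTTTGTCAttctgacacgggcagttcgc
Gsta3: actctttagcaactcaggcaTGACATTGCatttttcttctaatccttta
Srxn1 and Gstp1 carry the same matched letters, 37 and 66 bases before their starts, and these letters fit the looser form only. They include TGAGTCA, which is also the recognition sequence of the AP-1 factors. The Slc7a11 match fits the looser form and lies on the opposite strand, 89 bases before the start. Nfe2l2, Txnrd1 and Gsta3 carry the full core, 232, 84 and 113 bases before the start, on the opposite strand in Txnrd1. Srxn1 holds a full core as well, on the opposite strand 28 bases after its start, outside the stretch printed. A match describes letters in a window and is neither a tested binding site nor a cause of any change.

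Control array 3 stood apart from the other 2 control arrays. Across genes its correlation with them was 0.978 to 0.979, against 0.995 between control arrays 1 and 2 and 0.990 to 0.996 within the challenged groups. The mean of 14 hair follicle markers was 6.00, 6.12 and 11.82 on the control arrays, while the mean of 12 skeletal muscle markers was 17.95, 17.87 and 15.83. Keratinocyte markers were well represented in every group (means of 12.55 to 13.80 in control, 15.92 to 16.89 in oxazolone and 17.05 to 17.28 in urushiol skin), as the tissue label requires. The muscle marker mean was 7.04 to 9.15 after oxazolone and 11.36 to 12.21 after urushiol, and all 12 markers were called lower in each. The adipocyte mean went from between 11.17 and 11.95 to between 9.29 and 9.70 (oxazolone, 8 of 9 markers lower) and between 9.59 and 10.17 (urushiol, 7 of 9 lower). The neutrophil mean went from between 6.99 and 7.33 to between 10.50 and 11.28 and between 10.68 and 11.68, with 7 of 9 markers higher in each. In whole skin, fewer cells of a type and less RNA per cell cannot be told apart. The part of these shifts in the results below was not tested beyond the values printed beside them.

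Genes of the group rose and fell after allergen challenge. In oxazolone against control skin, 13 of the 42 rose, where 9.63% of all genes did, and 11 fell, where 6.92% did, by limma with Benjamini-Hochberg adjustment over all 30142 genes at 0.05 (16.6% of all genes in either direction). In urushiol against control skin 14 rose and 12 fell, against 9.96% and 6.43% of all genes (16.4% in either direction). Among the 19 genes other than transferases, 10 rose and 3 fell after oxazolone (median log2 difference 0.84) and 11 rose and 3 fell after urushiol (median 0.84). Among the 23 transferases 3 rose and 8 fell after oxazolone (median -0.67) and 3 rose and 9 fell after urushiol (median -0.62). The median over all genes was 0.06 and 0.04. The shares are over all genes, dim ones included, while 4 of the 42 lay below the mean of the arrays' medians. No share over genes of like brightness is set beside these counts. The 2 comparisons share the 3 control arrays, so they are given side by side and not as support for each other.

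The plot of all 42 differences from control shows them by role. Most transferase falls were in the mu class, 5 of 8 after oxazolone and 6 of 9 after urushiol. In each comparison the alpha, pi and theta classes gave 1 fall each, and the alpha, omega and microsomal classes 1 rise each.

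**Figure D1:**
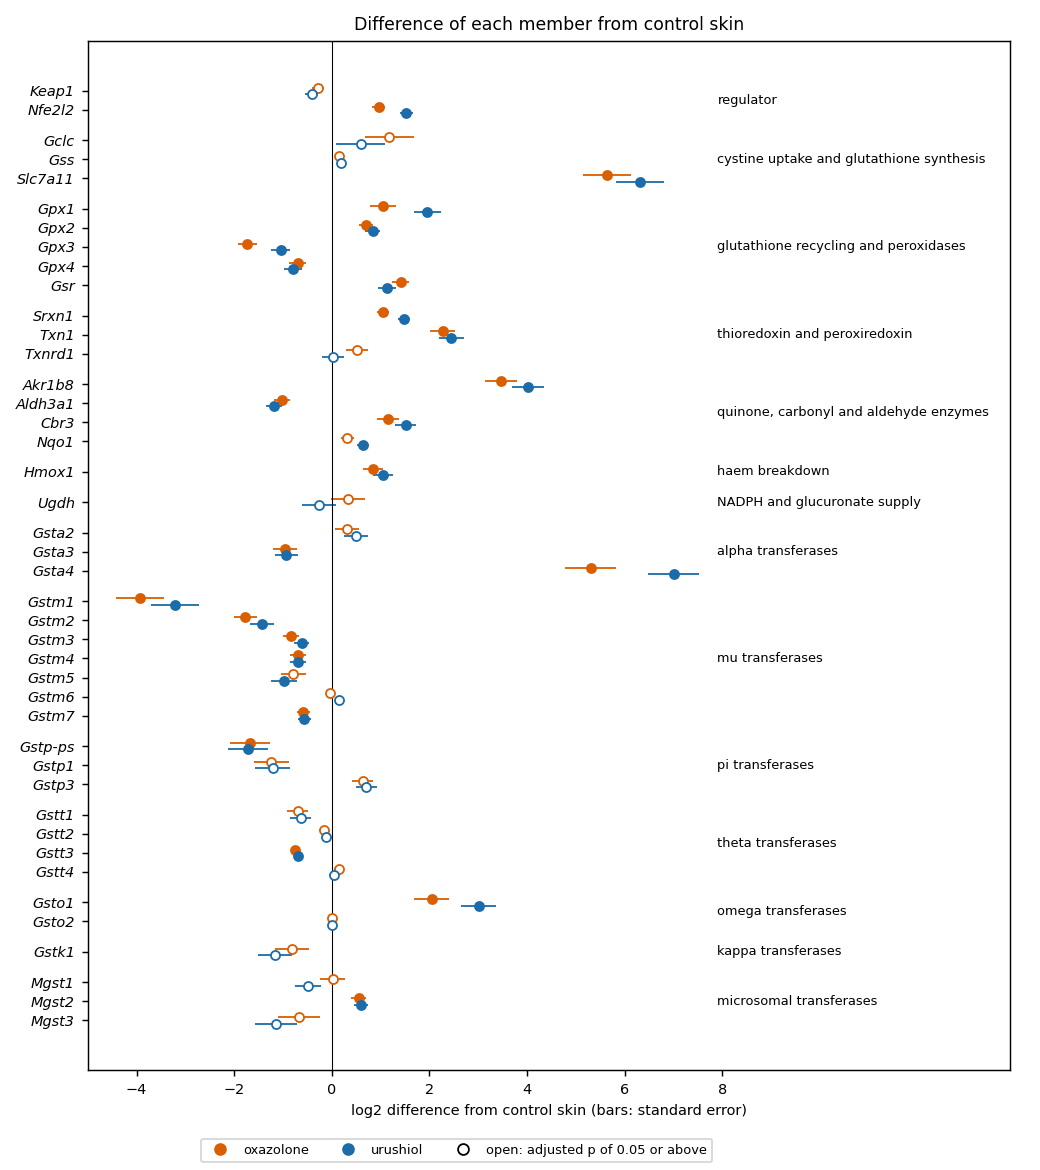
Log2 difference from control skin of each of the 42 genes, ordered by role (points, oxazolone in orange and urushiol in blue; bars, standard error; filled points, adjusted p under 0.05). Slc7a11 and Gsta4 lie farthest to the right, between 5.30 and 7.00, while Gstm1 lies farthest to the left, at -3.93 and -3.22.

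Without control array 3, 12 genes rose and 15 fell after oxazolone (15.8% and 10.8% of all genes), and 15 rose and 17 fell after urushiol (15.1% and 10.2%). Leaving out each of the 9 arrays in turn, 8 of the 13 rises and 5 of the 11 falls after oxazolone were called every time, as were 10 of the 14 rises and 4 of the 12 falls after urushiol. The rises were those of Nfe2l2, Slc7a11, Gsta4, Akr1b8, Txn1, Srxn1, Gsr and Gsto1 in each comparison, and of Gpx1 and Cbr3 after urushiol. The falls were those of Gstm1, Gstm2, Gstt3 and Aldh3a1 in each comparison, and of Gpx3 after oxazolone. For all genes the share of calls that were rises was 58.2% after oxazolone and 60.8% after urushiol on the deposited scale, 42% and 49.5% after quantile renormalisation, and 48.9% and 54.1% after centring each array on its median. No difference called for a member changed sign under these rescalings.

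The RNA of NRF2 itself rose after both allergens. Nfe2l2 was measured at log2 levels of 9.47, 9.70 and 9.56 in control skin, 10.81, 10.30 and 10.51 after oxazolone, and 11.04, 11.17 and 11.10 after urushiol. The 3 groups did not overlap, with control lowest and urushiol highest. The log2 difference was 0.96 ± 0.13 (SE, n = 3 against 3) after oxazolone, with a limma adjusted p of 0.00485, and 1.53 ± 0.13 after urushiol, with a limma adjusted p of 0.00103, or 1.95-fold and 2.88-fold on the deposited scale. Keap1, the inhibitor, was at 7.39, 7.49 and 7.18 in control, 6.91, 7.09 and 7.21 in oxazolone and 6.70, 7.09 and 7.03 in urushiol skin. The urushiol arrays lay below all control arrays and the oxazolone arrays overlapped them. Its differences of -0.28 ± 0.13 and -0.41 ± 0.13 did not pass (adjusted p 0.184 and 0.0789), and without control array 3 the urushiol difference was -0.50 with an adjusted p of 0.0457.

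Of the 3 measured genes of cystine uptake and glutathione synthesis, Slc7a11 alone passed the test. Slc7a11 encodes the light chain of the exchanger that brings cystine, the source of cysteine for glutathione, into cells. Its log2 levels were 4.79, 4.90 and 6.33 in control, 11.67, 10.81 and 10.47 in oxazolone and 12.00, 11.17 and 11.78 in urushiol skin. Every challenged array lay far above every control array, and the control arrays included values under the array medians of 5.53 to 5.64. Slc7a11 rose by 5.64 ± 0.49 (adjusted p 0.00129) and 6.31 ± 0.49 (adjusted p 0.000836) on the deposited log2 scale. No fold is given, since the control level was not shown to be above background.

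Gclc, the catalytic subunit of the rate-limiting enzyme of glutathione synthesis, spread widely within the control and oxazolone groups. It was at 9.10, 9.07 and 10.17 in control, 9.88, 11.73 and 10.28 in oxazolone and 9.87, 10.08 and 10.16 in urushiol skin. Control array 3 reached the level of the challenged arrays, and oxazolone array 2 was highest of all. The differences were 1.18 ± 0.50 (adjusted p 0.148) and 0.59 ± 0.50 (adjusted p 0.479). These 2 arrays were also those with the highest hair follicle marker mean of their groups (11.82 and 14.02). Gss, which joins the final glycine, lay between 6.59 and 6.96 on all arrays and differed by 0.14 (adjusted p 0.194) and 0.18 (adjusted p 0.13), the latter reaching 0.24 with an adjusted p of 0.0335 without control array 3.

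All 5 genes of glutathione recycling and the glutathione peroxidases were called in each comparison, 3 upward and 2 downward. Over all genes, 9.63% rose and 6.92% fell after oxazolone, and 9.96% and 6.43% after urushiol. The calls that held whichever array was left out were those of Gsr in each comparison, Gpx3 after oxazolone and Gpx1 after urushiol. Gsr, glutathione reductase, returns oxidised glutathione to its reduced form. It was at 9.20, 9.50 and 9.36 in control, 10.89, 11.03 and 10.36 in oxazolone and 10.66, 10.38 and 10.41 in urushiol skin, with no overlap between control and either challenged group. The rise was 1.41 ± 0.18 (adjusted p 0.00438) and 1.13 ± 0.18 (adjusted p 0.00884).

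Gpx1, the cytosolic peroxidase, was at 13.79, 13.33 and 13.51 in control, 14.86, 13.98 and 14.93 in oxazolone and 15.56, 15.22 and 15.73 in urushiol skin. The groups did not overlap and urushiol skin was highest. The rise was 1.05 ± 0.27 after oxazolone (adjusted p 0.0428) and 1.96 ± 0.27 after urushiol (adjusted p 0.00568). Without any 1 array other than oxazolone array 2, the oxazolone call was lost, with an adjusted p of up to 0.135 without control array 2. Gpx2, best known from gut epithelium, was at 5.84 to 6.00 in control, 6.50 to 6.81 in oxazolone and 6.48 to 7.08 in urushiol skin. It rose by 0.70 (adjusted p 0.0261) and 0.84 (adjusted p 0.0142), calls lost without control array 1 (0.0857 and 0.054) and, for oxazolone, also without control array 2 or any 1 oxazolone array.

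Gpx3, the peroxidase secreted into plasma, was at 14.91, 14.74 and 14.68 in control, 13.45, 12.65 and 13.05 in oxazolone and 13.59, 13.75 and 13.84 in urushiol skin. All challenged arrays lay below the control arrays, and all urushiol arrays lay above the oxazolone arrays. Gpx3 fell by 1.73 ± 0.19 (adjusted p 0.00263) and by 1.05 ± 0.19 (adjusted p 0.0134), the latter call being lost without control array 1 or urushiol array 1 (up to 0.0541). Gpx4, which reduces lipid peroxides in membranes, fell by 0.70 (adjusted p 0.0424) and by 0.80 (adjusted p 0.0286), from 7.88 to 8.49 in control to 7.39 to 7.65 and 7.18 to 7.60. When single arrays were left out, its oxazolone call held only without control array 3 or urushiol array 2, and its urushiol call only without control array 3, oxazolone array 1 or oxazolone array 2. The highest adjusted p, without control array 2, was 0.133 and 0.096.

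Of the thioredoxin system, Txn1 and Srxn1 rose and Txnrd1 did not pass. Txn1, the cytosolic thioredoxin that reduces protein disulfides, was at 11.81, 11.41 and 12.08 in control, 14.22, 13.65 and 14.25 in oxazolone and 14.58, 13.86 and 14.21 in urushiol skin. Both challenged groups lay above control without overlap, and they overlapped each other. The rise was 2.27 ± 0.26 (adjusted p 0.00293) and 2.45 ± 0.26 (adjusted p 0.00226), or 4.83-fold and 5.46-fold on the deposited scale.

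Srxn1, sulfiredoxin, which repairs overoxidised peroxiredoxins, was at 8.43, 8.23 and 8.24 in control, 9.27, 9.26 and 9.52 in oxazolone and 9.97, 9.60 and 9.76 in urushiol skin. The groups were separate in the order control, oxazolone, urushiol. The rise was 1.05 ± 0.12 (adjusted p 0.00271) and 1.48 ± 0.12 (adjusted p 0.000861). Txnrd1, the reductase that recharges thioredoxin, was at 10.20, 10.35 and 10.62 in control, 10.49, 11.24 and 10.99 in oxazolone and 10.73, 10.17 and 10.36 in urushiol skin. The groups overlapped and oxazolone array 2, with the highest hair follicle mean, was the highest. Its differences were 0.52 ± 0.23 (adjusted p 0.157) and 0.03 ± 0.23 (adjusted p 0.967).

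Among the 4 enzymes of quinones, carbonyls and aldehydes, Akr1b8 rose most and Aldh3a1 fell. Akr1b8, an aldo-keto reductase that reduces reactive aldehydes, was at 8.16, 7.84 and 8.19 in control, 12.01, 11.17 and 11.39 in oxazolone and 12.66, 11.48 and 12.10 in urushiol skin. All challenged arrays lay above all control arrays. The rise was 3.46 ± 0.33 (adjusted p 0.00162, 11-fold on the deposited scale) and 4.02 ± 0.33 (adjusted p 0.000971, 16.2-fold). Cbr3, a carbonyl reductase, rose from 5.41 to 5.78 in control to 6.40 to 6.93 in oxazolone and 6.70 to 7.42 in urushiol skin. The differences were 1.15 ± 0.22 (adjusted p 0.0155) and 1.51 ± 0.22 (adjusted p 0.00602), and the first call was lost without oxazolone array 1 or 3 or control array 1 or 2 (up to 0.0589).

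Nqo1, the quinone reductase often read as a mark of NRF2 activity, differed by less than 1 log2 unit. It was at 7.71, 7.17 and 7.23 in control, 7.66, 7.69 and 7.71 in oxazolone and 7.98, 7.99 and 8.07 in urushiol skin. Control array 1 was as high as the oxazolone arrays, and the urushiol arrays lay above all others. The difference after oxazolone, 0.32 ± 0.13, did not pass (adjusted p 0.143) and passed without control array 1 (0.00626). The rise after urushiol was 0.64 ± 0.13 (adjusted p 0.0207), a call lost without control array 2 or any 1 urushiol array (up to 0.0697).

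Aldh3a1, an aldehyde dehydrogenase abundant in the cornea, was at 7.34, 6.94 and 7.61 in control, 6.23, 6.26 and 6.34 in oxazolone and 5.98, 6.11 and 6.26 in urushiol skin. Challenged arrays lay below all control arrays. It fell by 1.02 ± 0.16 (adjusted p 0.00914) and by 1.18 ± 0.16 (adjusted p 0.00526), against the direction of Akr1b8 and Cbr3.

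Hmox1, haem oxygenase, which frees iron and biliverdin from haem, was at 9.43, 9.48 and 9.52 in control, 10.74, 10.08 and 10.14 in oxazolone and 10.79, 10.26 and 10.53 in urushiol skin. The control arrays lay close together and below every challenged array. The rise was 0.84 ± 0.20 (adjusted p 0.0309) and 1.05 ± 0.20 (adjusted p 0.0153). The oxazolone call was lost without urushiol array 3, oxazolone array 1 or 3, or control array 1 or 2 (up to 0.0936), and the urushiol call without control array 1 or 2 or urushiol array 1 or 3 (up to 0.0552). Macrophages are a known site of Hmox1, and the mean of 8 macrophage markers was 9.62 to 9.99 in control, 9.78 to 10.81 in oxazolone and 10.26 to 10.69 in urushiol skin, with 1 and 2 of them called higher. Ugdh, which makes the sugar donor for glucuronide conjugation, spanned 9.40 to 10.54 in control skin and differed by 0.34 (adjusted p 0.532) and -0.26 (adjusted p 0.681).

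**Figure D2:**
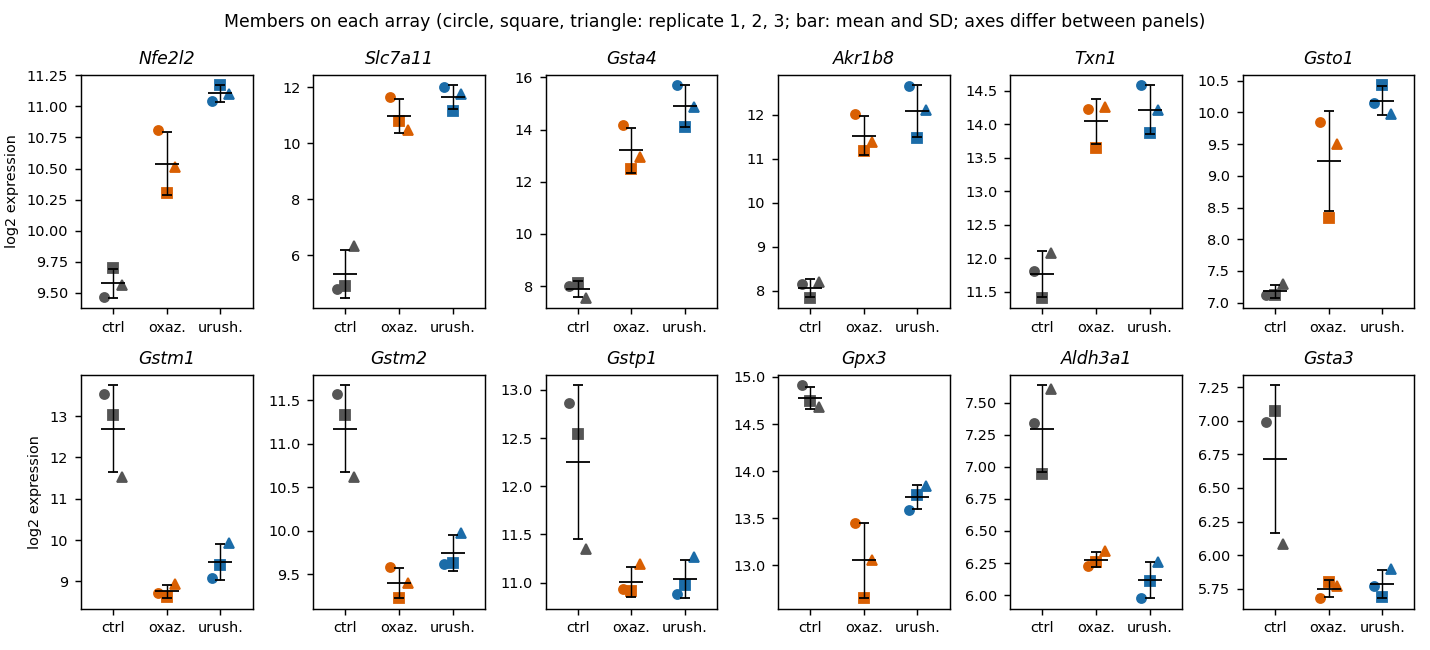
Log2 expression on each array of 12 of the genes, with axes that differ between panels (circle, square and triangle, replicates 1, 2 and 3; bars, mean and SD of 3 arrays). In the upper row each gene is higher on all 6 challenged arrays than on all 3 control arrays, and in the lower row each is lower; control array 3 is the lowest control array for Gstm1, Gstm2, Gstp1, Gpx3 and Gsta3.

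The cytosolic transferases are grouped into classes by sequence, and the calls are given class by class. Of 3 alpha class genes, which handle lipid peroxidation products, Gsta4 rose, Gsta3 fell and Gsta2 did not pass. Gsta4, the member most active on hydroxynonenal, was at 8.01, 8.13 and 7.55 in control, 14.16, 12.49 and 12.95 in oxazolone and 15.70, 14.10 and 14.88 in urushiol skin. Challenged and control arrays were far apart, and replicate 1 was highest in both challenged groups. The rise was 5.30 ± 0.52 (adjusted p 0.00188) and 7.00 ± 0.52 (adjusted p 0.000746), or 39.5-fold and 128-fold on the deposited log2 scale.

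Gsta3 was at 6.99, 7.07 and 6.08 in control, 5.68, 5.80 and 5.77 in oxazolone and 5.77, 5.69 and 5.90 in urushiol skin. Control array 3 was close to the challenged arrays, which lay near the array medians. Gsta3 fell by 0.96 ± 0.24 (adjusted p 0.0388) and by 0.93 ± 0.24 (adjusted p 0.0441), and each call was lost without any 1 array other than control array 3 (up to 0.117 and 0.133, each without control array 2). Gsta2 differed by 0.31 (adjusted p 0.425) and 0.49 (adjusted p 0.229), its urushiol arrays spanning 8.35 to 9.22.

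The mu class, which conjugates epoxides and other electrophiles, was the class with the most falls. Of 7 genes 5 fell after oxazolone (6.92% of all genes) and 6 after urushiol (6.43% of all genes), and 0 rose, with median differences of -0.79 and -0.69; the directions of these calls were the same under both rescalings. The 7 genes lie beside each other on chromosome 3 in the order Gstm5, Gstm7, Gstm6, Gstm3, Gstm2, Gstm1 and Gstm4, and their sequences are alike, so that probes of 1 gene may take signal from another.

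Gstm1 was at 13.54, 13.02 and 11.52 in control, 8.72, 8.62 and 8.94 in oxazolone and 9.08, 9.41 and 9.93 in urushiol skin. Control array 3 was the lowest control array and was still above every challenged array. Gstm1 fell by 3.93 ± 0.49 (adjusted p 0.00411, 15.3-fold on the deposited scale) and by 3.22 ± 0.49 (adjusted p 0.00782, 9.32-fold). Gstm2 was at 11.57, 11.33 and 10.62 in control, 9.58, 9.23 and 9.40 in oxazolone and 9.62, 9.63 and 9.98 in urushiol skin, in the same order of groups. It fell by 1.77 ± 0.24 (adjusted p 0.00567) and by 1.43 ± 0.24 (adjusted p 0.0112).

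Gstm5 was at 9.80, 9.43 and 8.72 in control, 8.51, 8.57 and 8.51 in oxazolone and 8.57, 8.17 and 8.27 in urushiol skin, with control array 3 just above the challenged arrays. It fell by 0.98 ± 0.26 after urushiol (adjusted p 0.0423), a call lost without any 1 array other than control array 3 (up to 0.131 without control array 2). The oxazolone difference of -0.79 ± 0.26 did not pass (adjusted p 0.0766) and was -1.08 with an adjusted p of 0.0033 without control array 3. Gstm3 (differences -0.84 and -0.62), Gstm4 (-0.69 and -0.69) and Gstm7 (-0.58 and -0.56) fell in each comparison, with adjusted p between 0.0155 and 0.0383.

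The calls of these 3 genes depended on single arrays. For Gstm3 the oxazolone call was lost without oxazolone array 2 (0.0505) and the urushiol call without any 1 array other than control array 3 (up to 0.11, without urushiol array 1). For Gstm4 the oxazolone call was lost without any 1 array other than control array 3 and urushiol array 2 (up to 0.105), and the urushiol call without any other than control array 3 (up to 0.107), both highest without control array 2. For Gstm7 the oxazolone call was lost without any other than control array 3 and urushiol array 1 (up to 0.0872, without control array 1), and the urushiol call without any other than control array 3 and oxazolone array 2 (up to 0.105, without urushiol array 1). Gstm6 lay between 5.63 and 6.06 on all arrays and differed by -0.04 (adjusted p 0.759) and 0.14 (adjusted p 0.278).

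The pi class, a major transferase of epithelia, showed a fall for the copy named Gstp-ps and, for Gstp1, a difference in the same direction that did not pass. Gstp1 was at 12.86, 12.54 and 11.35 in control, 10.93, 10.91 and 11.19 in oxazolone and 10.88, 10.97 and 11.26 in urushiol skin. Control array 3 lay just above the challenged arrays and well below the other control arrays. The differences of -1.24 ± 0.36 (adjusted p 0.0572) and -1.21 ± 0.36 (adjusted p 0.0622) did not pass on the deposited scale with all 9 arrays weighted equally and all genes tested. Without control array 3 they were -1.69 (adjusted p 0.000788) and -1.66 (adjusted p 0.000836). With all 9 arrays they passed after quantile renormalisation (0.0357 and 0.0417), without dim genes (0.0332 and 0.0356) and with array weights (0.0109 and 0.00715), and the oxazolone difference also after median centring (0.0462).

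Gstp-ps, annotated as a pseudogene of this class, was at 11.70, 11.36 and 9.96 in control, 9.32, 9.13 and 9.54 in oxazolone and 9.35, 9.13 and 9.38 in urushiol skin, again with control array 3 nearest to the challenged arrays. It fell by 1.68 ± 0.41 (adjusted p 0.0353) and by 1.72 ± 0.41 (adjusted p 0.0332), calls lost without any 1 array other than control array 3 (up to 0.116 and 0.111, without control array 2). Whether its probes take signal from Gstp1 or Gstp2 was not tested. Gstp3, on chromosome 19 as Gstp1 is, ran from 6.20 to 6.56 in control to 6.63 to 7.36 and 6.87 to 7.40. Its differences of 0.63 (adjusted p 0.0943) and 0.71 (adjusted p 0.0722) passed without oxazolone array 1 (0.0456 and 0.0438), and the urushiol difference also when dim genes were left out (0.0436).

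Of 4 theta class genes, neighbours on chromosome 10, Gstt3 fell and the others did not pass. Gstt3 was at 5.79 to 6.03 in control, 5.04 to 5.16 in oxazolone and 5.14 to 5.24 in urushiol skin. It fell by 0.76 ± 0.07 (adjusted p 0.00174) and by 0.69 ± 0.07 (adjusted p 0.00231), at levels around the array medians. Gstt1 differed by -0.70 (adjusted p 0.0672) and -0.64 (adjusted p 0.0894), and passed without control array 3 (-0.87 with 0.0294, and -0.80 with 0.0393). Gstt2 (-0.17 and -0.12) and Gstt4 (0.14 and 0.04) were dim on all arrays.

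Gsto1, the omega class enzyme that also reduces dehydroascorbate, was at 7.12, 7.12 and 7.30 in control, 9.85, 8.34 and 9.51 in oxazolone and 10.15, 10.43 and 9.98 in urushiol skin. The 3 groups did not overlap, and oxazolone array 2 was the lowest challenged array. The rise was 2.05 ± 0.36 (adjusted p 0.0126, 4.15-fold on the deposited scale) and 3.01 ± 0.36 (adjusted p 0.00337, 8.04-fold). Gsto2, the other omega gene, was listed at 4.66 on all 9 arrays, as 205 genes were listed at a single value, and carries no information on a change.

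Gstk1, the mitochondrial kappa enzyme, was at 11.02, 10.74 and 9.71 in control, 9.55, 9.78 and 9.71 in oxazolone and 9.41, 8.88 and 9.68 in urushiol skin, control array 3 being level with oxazolone skin. Its differences of -0.81 (adjusted p 0.152) and -1.17 (adjusted p 0.064) became -1.20 (0.0123) and -1.56 (0.00468) without control array 3. Of 3 microsomal genes, Mgst2, which can also make leukotriene C, rose by 0.55 (adjusted p 0.0487) and 0.60 (adjusted p 0.037). Its first call was lost without any 1 array other than control array 3, and its second without any other than control array 3 and oxazolone array 1 (up to 0.133, without control array 2, and 0.12, without urushiol array 1). Mgst1 differed by 0.02 (adjusted p 0.979) and -0.49 (adjusted p 0.247). Mgst3 differed by -0.67 (adjusted p 0.319) and -1.14 (adjusted p 0.118), and by -1.56 (0.0221) after urushiol without control array 3.

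Marker lists of other cell types moved with several of these values. The muscle and adipocyte means were lower on every challenged array than on every control array, as were Gstm1, Gstm2 and Gpx3. On control array 3, where the muscle mean was 15.83 against 17.87 and 17.95, the mu and pi genes named above, Gstk1 and Mgst3 were also at their lowest control level, whereas the adipocyte mean of 11.36 lay between those of the other 2 control arrays. On oxazolone array 2, where the hair follicle mean was 14.02, the sebocyte mean 12.00 and the melanocyte mean 11.24, each the highest of all 9 arrays, Gclc, Txnrd1, Mgst1 and Ugdh were at their highest of all 9 arrays. Among the control arrays, Gclc, Txnrd1 and Mgst1 were highest on array 3, where the hair follicle mean was 11.82. Ugdh was instead highest on control array 2 (10.54), where that mean was 6.12, and was at 9.70 on control array 3. The part of muscle, fat, hair follicle, sebaceous or pigment cell content in these genes was not tested. Slc7a11, Gsta4, Akr1b8, Txn1 and Nfe2l2 rose in skin whose neutrophil and keratinocyte marker means were also higher, and the part of these cells was not tested. Of 9 keratinocyte markers, 6 were called higher after oxazolone and 7 after urushiol (9.63% and 9.96% of all genes). The differences were uneven. Sprr1b (8.95 and 9.78) and Krt16 (8.31 and 8.82) rose most, while Krt5 (0.48 and 0.89) and Krt10 (-0.16 and -0.42) were not called. The lists of cell division (7 of 7 markers above control, median differences 1.69 and 1.57) and hair follicle (14 of 14, medians 4.58 and 2.83) were also above control. With all 9 arrays, 1 and 0 of the former and 0 and 0 of the latter were called. Without control array 3, 7 of 7 cell division markers were called higher after each allergen. So were 14 of 14 hair follicle markers after oxazolone (15.8% of all genes) and 9 of 14 after urushiol (15.1% of all genes).

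**Figure D3:**
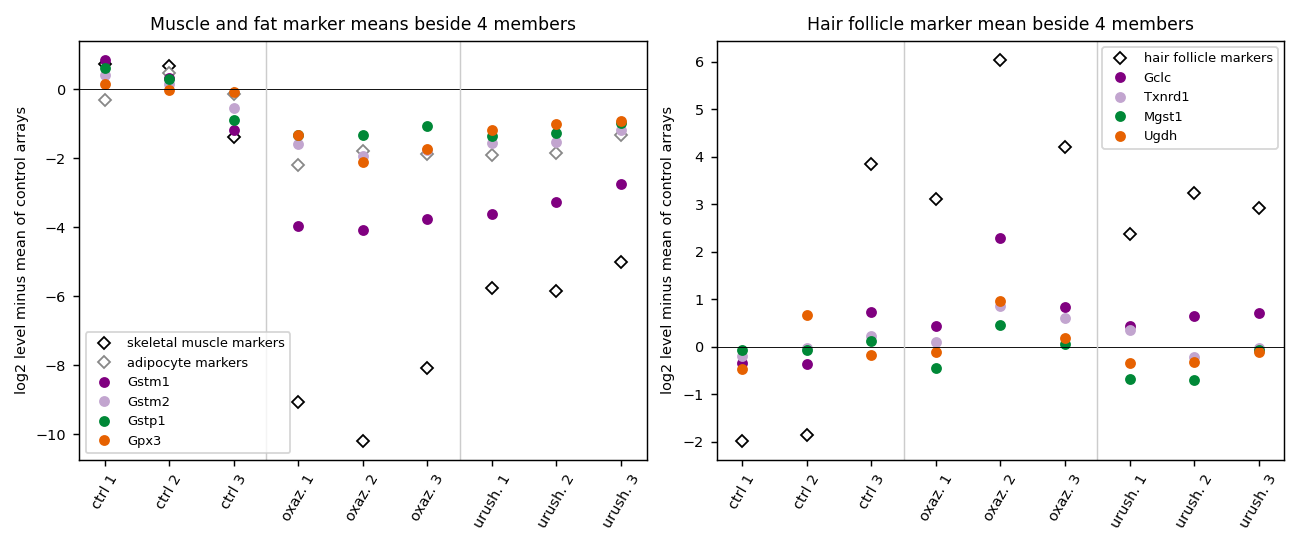
Marker list means and 8 of the genes on each of the 9 arrays, as log2 level minus the mean of the control arrays (open diamonds, list means; filled circles, genes). On the left the skeletal muscle mean and Gstm1 are lowest in oxazolone skin and lower on control array 3 than on the other control arrays. On the right the hair follicle mean and Gclc, Txnrd1, Mgst1 and Ugdh are highest on oxazolone array 2. Among the control arrays the hair follicle mean, Gclc, Txnrd1 and Mgst1 are highest on array 3, and Ugdh on array 2.

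Other genes of the pathway were counted from lists of their own, whose counts stand against 9.63% rises and 6.92% falls over all genes after oxazolone and 9.96% and 6.43% after urushiol. Of 27 measured other NRF2 targets, 2 rose and 9 fell after oxazolone (7.41% and 33.3%, median -0.13) and 4 rose and 6 fell after urushiol (14.8% and 22.2%, median -0.08), so that the rises were near the share over all genes. The largest falls were those of Aldh1a1, retinal dehydrogenase, by 5.11 ± 0.70 (adjusted p 0.00565) and by 4.00 ± 0.70 (adjusted p 0.0123), and of its relative Aldh1a7, by 2.46 (0.00307) and by 2.34 (0.00354). Abcc5, an exporter of organic anions, fell by 2.10 (0.00242) and by 2.00 (0.00284). Aldh1a1 was at 13.60, 13.66 and 11.01 in control and 7.28 to 9.31 on the challenged arrays, so that it too was lowest on control array 3 among control arrays. When any 1 array was left out, the 9 falls after oxazolone became 6 to 8 and the 4 rises after urushiol 1 to 3. The 2 rises after oxazolone became 1 to 2, and the 6 falls after urushiol 6 to 8. The oxazolone calls of Abcc1, Sqstm1 and Nqo2 were each lost without 8 of the 9 arrays singly (up to 0.131). Those of Aldh1a1, Aldh1a7 and Abcc5 held each time.

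Of 9 measured partners and rivals of NRF2, Bach1, the repressor that competes for the same elements, rose from 9.89 to 10.29 in control to 11.32 to 11.57 after oxazolone and 11.02 to 11.32 after urushiol. The differences were 1.34 ± 0.12 (adjusted p 0.00156) and 1.08 ± 0.12 (adjusted p 0.00304). Nfe2l3, a relative of NRF2, rose by 1.70 (0.0204) and 1.40 (0.0365), and Nfe2l1, another relative, fell by 1.08 (0.045) and by 1.17 (0.0356). The Nfe2l3 calls were lost without oxazolone array 2 or 3 or control array 1 or 2 (up to 0.0728), and for urushiol without any 1 array other than control array 3 (up to 0.12). The Nfe2l1 calls were lost without any 1 array other than control array 3, and for urushiol also other than oxazolone array 3 (up to 0.137 and 0.117). In all, 2 genes of this list rose and 2 fell after oxazolone, and 3 rose and 2 fell after urushiol, which became 1 to 2 rises and 0 to 2 falls after urushiol when any 1 array was left out.

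Of 13 genes of glutathione turnover and cysteine supply, 2 rose and 1 fell after oxazolone (15.4% and 7.69%, against 9.63% and 6.92% of all genes), and 2 rose and 0 fell after urushiol (15.4% and 0%). Ggct, which breaks down gamma-glutamyl peptides, rose by 1.41 (0.0264) and 2.14 (0.00647), and Ahcy, which frees homocysteine, rose by 1.54 (0.014) and 1.45 (0.0167). Dpep1, a dipeptidase that cleaves the glutathione remnant cysteinylglycine, fell by 1.54 after oxazolone (0.0362). The oxazolone call of Ggct was lost without oxazolone array 1 or 3 or control array 1 or 2 (up to 0.0894). The Ahcy calls were lost without oxazolone array 3 or control array 2 (up to 0.0541), and for urushiol without control array 1 or 2 or urushiol array 3 (up to 0.0625). The Dpep1 call was lost without control array 1 or 2, any 1 oxazolone array or urushiol array 2 (up to 0.118).

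Of 21 other antioxidant enzymes, 3 rose and 5 fell after oxazolone (14.3% and 23.8%, against 9.63% and 6.92% of all genes), and 2 rose and 5 fell after urushiol (9.52% and 23.8%, against 9.96% and 6.43%). Glrx, glutaredoxin, which removes glutathione from proteins, rose from 10.43 to 11.27 in control to 14.15 to 15.00 and 15.22 to 15.95, by 3.88 ± 0.31 (adjusted p 0.00103) and 4.78 ± 0.31 (adjusted p 0.000521). Txnip, the inhibitor of thioredoxin, fell by 2.35 ± 0.37 (0.00912) and by 2.25 ± 0.37 (0.00993), opposite to Txn1. Cat, catalase, fell by 2.06 ± 0.33 (0.00941) and by 1.72 ± 0.33 (0.0161), the latter call being lost without control array 2 (0.0576). Without control array 3 the counts for this list were 6 rises and 7 falls after oxazolone (15.8% and 10.8% of all genes), and 6 and 10 after urushiol (15.1% and 10.2% of all genes).

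Of 9 genes of phase 1 metabolism and the aryl hydrocarbon receptor, 1 rose and 2 fell after oxazolone, and 1 rose and 3 fell after urushiol, the single rise (11.1%) being near the share over all genes (9.63% and 9.96%). Cyp2e1, a cytochrome P450 of solvents such as acetone and ethanol, was at 14.31 to 15.58 in control, 8.26 to 9.14 in oxazolone and 9.69 to 10.85 in urushiol skin. It fell by 6.14 ± 0.42 (adjusted p 0.000599) and by 4.67 ± 0.42 (adjusted p 0.00133). Ahr, the receptor, fell by 1.25 (0.0045) and by 1.10 (0.00678), while Tiparp, a target and repressor of it, rose by 2.09 (0.00736) and 2.36 (0.00465).

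Between urushiol and oxazolone skin no difference in the 42 genes passed limma with Benjamini-Hochberg adjustment. None was called higher, where 0.00664% of all genes were, and none lower, where 0.00995% were (0.0166% in either direction), the lowest adjusted p of a member being 0.371 (Nfe2l2). At an unadjusted limma p under 0.05, 7 of the 42 differed, against 1772 of 30142 genes. All 7 were higher in urushiol skin, and the directions of the 1772 were not counted. The difference for Nfe2l2 was 0.56 (95% interval 0.26 to 0.86), for Srxn1 0.43 (0.15 to 0.70), for Gpx3 0.68 (0.23 to 1.12) and for Gpx1 0.91 (0.27 to 1.56). For Gsta4 it was 1.69 (0.46 to 2.93), for Gsto1 0.95 (0.11 to 1.80) and for Nqo1 0.33 (0.01 to 0.64).

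In 9 of the 42 every urushiol array lay above every oxazolone array, where this held for 5.35% of all genes, and in 0 every urushiol array lay below, where 4.39% did. Gsta4 was not among them, since urushiol array 2 (14.10) lay just under oxazolone array 1 (14.16). For 28 of the 42 the 95% interval of the difference, not adjusted for the number of genes, excluded a 2-fold difference either way, as it did for Txn1 (-0.43 to 0.79) and Hmox1 (-0.26 to 0.67). It did not for Slc7a11 (-0.49 to 1.83), Gstm1 (-0.45 to 1.88) or Akr1b8 (-0.22 to 1.33). The share of all genes with such an interval was not counted, so the 28 are not read as particular to the members. The median standard error was 0.113 over all genes and 0.216 over the members. The muscle marker mean was higher in urushiol than in oxazolone skin as well (11.36 to 12.21 against 7.04 to 9.15), and its part in the values of Gpx3 and Gstm1 was not tested. With the replicate number as a block in a fit of these 2 groups alone, 0 of the 42 and 0 of all genes were called. Of the 42, 11 had an unadjusted p under 0.05, a count with no share over all genes to set beside it. Gsta4 (0.000414), Nqo1 (0.00227), Gpx1 (0.00647), Nfe2l2 (0.0333) and Srxn1 (0.0343) were again among them, and Gpx3 (0.059) and Gsto1 (0.129) were not. Akr1b8 (0.0125), Gstm1 (0.0178), Gstm6 (0.0228), Gstm3 (0.0281) and Cbr3 (0.0407) were higher in urushiol skin in this fit, and Aldh3a1 (0.0495) was lower. These p values are unadjusted limma values, and the SE of the Gsta4 difference was 0.10 with the block against 0.52 without it. The intervals given above are those of the fit without the block.

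**Figure D4:**
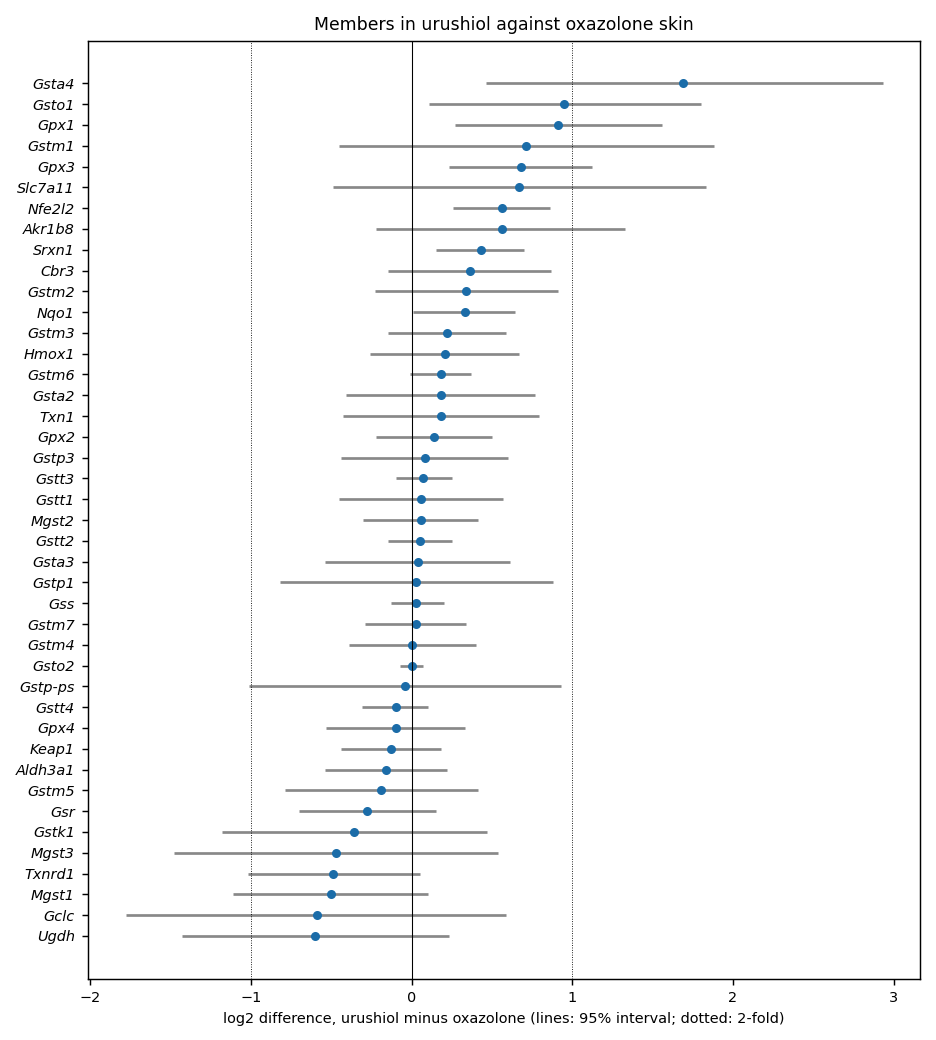
Log2 difference, urushiol minus oxazolone, for the 42 genes in order of size (points; lines, 95% interval not adjusted for the number of genes; dotted lines, 2-fold). Gsta4 lies farthest to the right at 1.69 with an interval of 0.46 to 2.93, and 29 genes lie above 0 and 13 below.

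By the moderated F test over the 3 groups, 23 of the 42 differed, where 14.1% of all genes did. Both directions contained genes with a core element in their window. The core was found in 2 of 10 genes that rose and 2 of 9 that fell after oxazolone among those with a window, and in 2 of 11 and 3 of 10 after urushiol, against 14.0% of all genes. The rises with a core, Nfe2l2 and Srxn1, were called whichever array was left out. The falls with a core, Gsta3, Gstm7 and after urushiol Gstm5, were each lost without 7 or 8 of the 9 arrays singly. Among calls with a window that always held in each comparison, the falls Gstm1, Gstm2 and Gstt3 had no core. Nor did the rises Slc7a11, Akr1b8, Txn1 and Gsto1. Srxn1 and Gstp1, whose matched letters printed above are identical, differed from control in opposite directions, at 1.05 and -1.24 after oxazolone and 1.48 and -1.21 after urushiol, of which the Gstp1 differences did not pass on the deposited scale and passed under the alternatives named above.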

How the data were processed

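The deposited values are log2 expression levels, 1 per transcript cluster and array, running from 2.20 to 19.93. Per the submitters' processing notes the software was Affymetrix Expression Console 1.4, RMA and Transcriptome Analysis Console, whose order and roles are not stated there. Some values exceed 16, the highest log2 value a 16-bit scanner can give, through a step not given in the sources used here, nor is the genome build. A log2 difference may therefore not equal a log2 ratio of RNA. The highest value of a member was 15.73. Arrays carry no read depth, and their number limits the precision (median standard error 0.113 over all genes, 0.216 over the members).

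Of 72688 features, 6732 array controls were left out, and 30604 of 65956 clusters had 1 symbol (2146 several, 33206 none). Symbols of 827 clusters were updated through gene IDs to RefSeq (GRCm38.p6), none of them a member. A gene with several clusters was represented by the brightest of them on average. Groups came from the sample titles, and the test was limma's moderated, two-sided test (version 3.58.1, lmFit with eBayes, under R 4.3.3; 1 fit of 9 arrays, Benjamini-Hochberg over 30142 genes, threshold 0.05). An exact permutation test of 3 against 3 arrays cannot go below 0.1. The code was tested on simulated data. Adjusted p values printed alone in parentheses are limma's.

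Values on each array are given for the 6 largest non-overlapping called rises and falls of each comparison and for 11 genes chosen by name, Gclm excepted. Of each pathway list up to 3 called genes with the largest difference are named. Members and lists were chosen with earlier results of these data known. The labels do not state a paired design, and replicate numbers in the titles were checked for pairing. Deviations from the group means correlated at 0.201, 0.197 and 0.124 between urushiol and oxazolone arrays of 1 number. Pairs of 1 number with control arrays ran from -0.232 to 0.337. The main fit was unpaired, and fits with the replicate number as a block were run as alternatives. Alternatives were other scalings, filters, variance models, weights, thresholds, blocks and left-out arrays. Transferases are near-identical copies in part, and their probes may share signal.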

Additional observations from a re-analysis of the deposited data

How the results depend on the processing

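No difference of a member reversed among those called. Rises and falls numbered 13 and 11 after oxazolone (9.63% and 6.92% of all genes) and 14 and 12 after urushiol (9.96% and 6.43%). The shares over all genes move with the setting as well. Without control array 3 they were 15.8% and 10.8% after oxazolone and 15.1% and 10.2% after urushiol. For the other settings below they are not given, so those counts are not read as particular to the members. Leaving out each array in turn gave 8 to 12 rises and 5 to 15 falls after oxazolone, 11 to 15 and 4 to 17 after urushiol, and 12 to 27 by the F test (23 with all arrays). In fits of the 2 groups compared alone, falls numbered 5 after oxazolone and 4 after urushiol. With the replicate number as a block in all 9 arrays, falls numbered 7 in each comparison, and with the block in 2 groups alone oxazolone gave 4 rises and 0 falls and urushiol 0 rises and 0 falls. The block changed no call between the allergens. At a threshold of 0.01, oxazolone gave 7 rises and 5 falls, urushiol 3 falls, and the F test 13. Other counts of these comparisons stayed within 1.5 times under quantile renormalisation, median centring, removal of dim genes, cluster means, robust or trended variances, array weights and a threshold of 0.10. The count between the allergens was 0 under every alternative run. Signal over background limits what can be said of 4 members below the mean of the arrays' medians (Gsto2, Gstt2, Gstt3 and Gstt4), since there are no detection calls in the table.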
